A study of Camellia sinensis with 12 samples.

Results

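Small RNAs of the bud and of the young stem of Xinyang Maojian (XYMJ) tea plants were compared through the conserved miRNA IDs that had at least 10 counts summed over the 12 libraries of the series, 222 of 650 listed IDs. By the study's account, the group sBud holds buds from the top of the shoot, and sS1 holds the piece of stem that lies between the first and the second leaf below the bud, with 3 libraries each. All plants were 3-year-old bushes of the same cultivar, grown in a tea garden, so by their labels the groups differ by organ and not by genotype, age or treatment. How many plants stand behind 1 library is not given in the sources used here. Libraries of the first leaf (sL1) and the second leaf (sL2) entered the fit for the estimate of the spread between replicates, and their levels are shown only beside those of the bud and stem. Each organ is a mixture of cell types, and a miRNA that is lower in an organ because fewer of its cells make it cannot be told apart from one that is lower in every cell.

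Plant miRNAs are short RNAs that guide an ARGONAUTE protein to messenger RNAs of near-perfect complementarity, which are then cut or not translated. Most of the old families repress transcription factors: csn-miR396 is known for growth-regulating factors (GRFs), csn-miR319 for TCP factors, csn-miR159 for GAMYB-like MYB factors, csn-miR166 for class III HD-ZIP factors, csn-miR160 and csn-miR167 for auxin response factors and csn-miR164 for NAC factors of the CUC group. These roles are known mainly from Arabidopsis. In a growing shoot they are known for setting organ boundaries, leaf polarity and the switch from cell division to expansion. The counts name each sequence variant by family and member, so cas-MIR396-11 is member 11 of csn-miR396. IDs called cas-undef carry no family name.

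A library held between 408240 and 547179 counts in sBud and between 540019 and 746562 in sS1, and the 222 tested IDs took at least 99.98% of them. No pair of replicates agreed within sampling noise (chi-square over degrees of freedom 16.1 or more), so none was treated as a file deposited again, which does not show that they come from separate plants. The table holds no protein-coding marker genes, so the organ labels could not be checked against markers, and the deposited tissue field says leaf for every library. The correlation of log2 counts was taken over the tested IDs, and IDs are not replicates of each other. Pairs of an sS1 and an sL1 library had a median Pearson r of 0.960, those of sS1 libraries with each other 0.964, those of sBud and sS1 libraries 0.905, and those of sL1 and sL2 libraries 0.828. The stem libraries were thus about as alike to those of the first leaf as to each other. The study reported few differentially expressed miRNAs between sL1 and sL2, whose libraries had the lowest median r here. It also found more of them between sBud and sS1 than between sBud and sL2. Here pairs of sBud and sL2 libraries had a median r of 0.851, below that of sBud and sS1. Group labels were used as deposited, and whether any were exchanged was not tested. A count of 0 allows up to 3 counts, or between 4.69 and 7.47 CPM in these 6 libraries, where CPM stands for counts scaled to equal library size with the TMM factor of edgeR. This limit covers counting error only, since sequenced PCR products are not independent molecules.

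The bud and the stem were dominated by the same few miRNAs in different proportions. The most abundant ID in the bud was cas-MIR159-1, at 430351, 429832 and 432283 CPM in the sBud libraries and 267427, 288688 and 271253 CPM in sS1. In the stem it was cas-MIR166-4, at 472741, 323242 and 404463 CPM in sS1 against 190645, 221871 and 174971 CPM in sBud. The libraries of both organs did not overlap in either miRNA. Only cas-MIR166-4 passed the threshold on the size of the change (log2 fold change of sBud over sS1, log2FC, -1.03 with a standard error, SE, of 0.17, adjusted p = 0.000425), and cas-MIR159-1 had a log2 fold change of 0.64 (SE 0.09, adjusted p = 0.000196). Together, the 5 most abundant IDs held 81.7% ± 0.206 of the counts in sBud (mean ± SD, n = 3, as in all values below) and 83.6% ± 1.20 in sS1. The sBud libraries were all below the sS1 libraries in this share (exact permutation test, two-sided, p = 0.1, the smallest that 3 against 3 libraries can give). For the 2 most abundant IDs the order was the opposite, 64.6% ± 0.453 in sBud and 61.2% ± 1.90 in sS1. The change in cas-MIR166-4 lay so close to the threshold that it was at -0.84 with library size as the only scaling, at -0.96 without sBud replicate 3 and at -0.84 without sS1 replicate 1. None of these passes the threshold on size, and in all the call was lost in 6 of 15 alternatives.

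A miRNA counted as a DEM (differentially expressed miRNA) if edgeR's quasi-likelihood test gave an adjusted p below 0.05 and a log2 fold change beyond 1 in either direction. Between sBud and sS1, 50 of the 222 tested IDs were DEMs (22.5%), of which 26 were higher in sBud (11.7% of those tested) and 24 were higher in sS1 (10.8%). The thresholds of the study's methods, which use the unadjusted p, gave 65 (29.3%) when applied to edgeR's test. The study's own count came from DESeq and is not compared here. All sBud libraries lay above all sS1 libraries in 48 IDs (21.6%) and below them in 43 (19.4%). Of the 50 DEMs, 49 had libraries that did not overlap, and the exception was cas-MIR477-2. The DEMs higher in sBud came from 15 families and had a median absolute log2 fold change of 2.57, and those higher in sS1 came from 10 families with a median of 2.503. A mean above 1000 CPM in the higher organ was reached by 9 of the 24 stem DEMs and by 6 of the 26 bud DEMs. Another 11 IDs reached an adjusted p below 0.05 with a smaller change. The scaling bears on the balance of directions. With library size alone, the median log2 fold change of all tested IDs moved up by 0.18, from 0.06 to 0.24, and the DEMs were 34 higher in sBud and 19 higher in sS1.

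**Figure D1:**
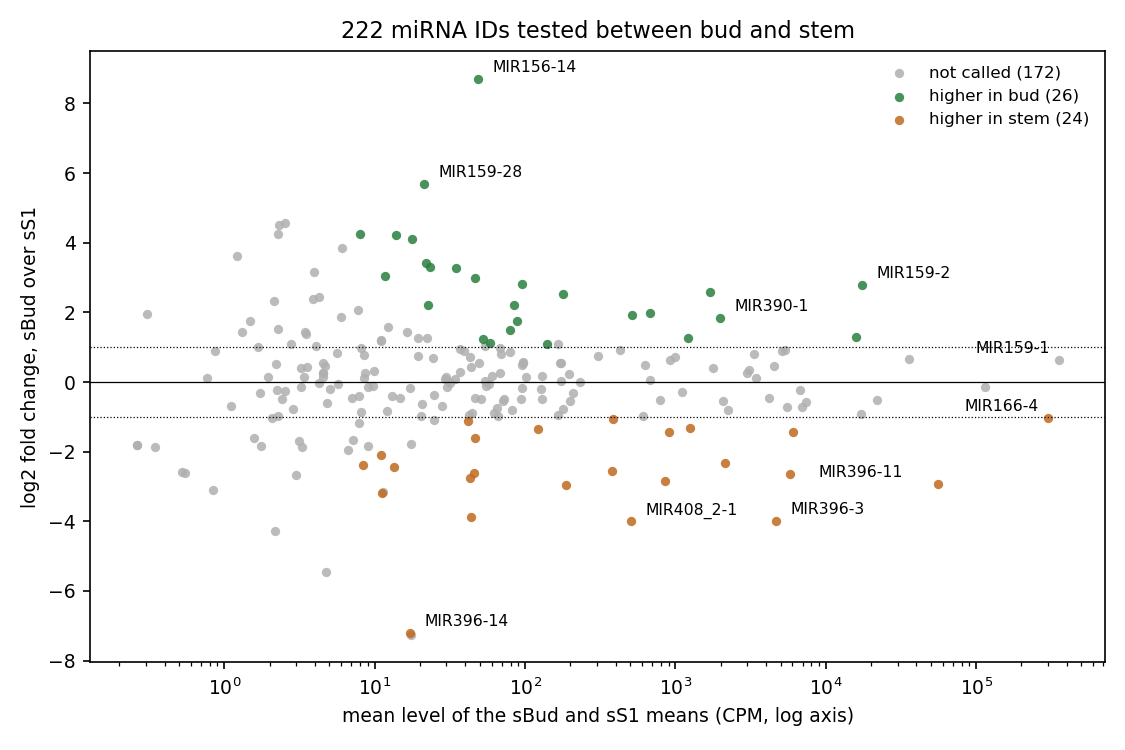
Each point is 1 of the 222 tested miRNA IDs, except 1 ID with 0 counts in all 6 libraries, which has no place on a log axis. The horizontal axis gives the mean of its sBud and sS1 levels in CPM (log axis), and the vertical axis the log2 fold change of sBud over sS1. Green marks the 26 DEMs higher in sBud, orange the 24 higher in sS1 and grey the 172 others. Dotted lines mark a log2 fold change of 1 in either direction. The DEMs run from scarce miRNAs such as cas-MIR156-14, which had 0 counts in the stem, to the abundant cas-MIR396-11.

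When counts were summed per family, 12 of 34 families with enough counts passed the test, 6 higher in sBud and 6 higher in sS1. Over all units of this fit, IDs without a family name included, 13 of 52 passed (25.0%). Higher in sBud were csn-miR160, csn-miR319, csn-miR390, csn-miR169, csn-miR399 and csn-miR8762. Higher in sS1 were csn-miR396, csn-miR408, csn-miR398, csn-miR164, csn-miR167 and csn-miR477. The log2 fold changes ranged from -3.85 for csn-miR408 to 3.35 for csn-miR8762. Leaving out a library ended the call of 2 families. For csn-miR399 the log2 fold change fell to 0.78 without sBud replicate 3 (adjusted p = 0.218), and the adjusted p was 0.0793 without sS1 replicate 3. Without sS1 replicate 2, csn-miR8762 was at 4.43. For csn-miR477 the value was -1.82 without sS1 replicate 2 (adjusted p = 0.0876).

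**Figure D2:**
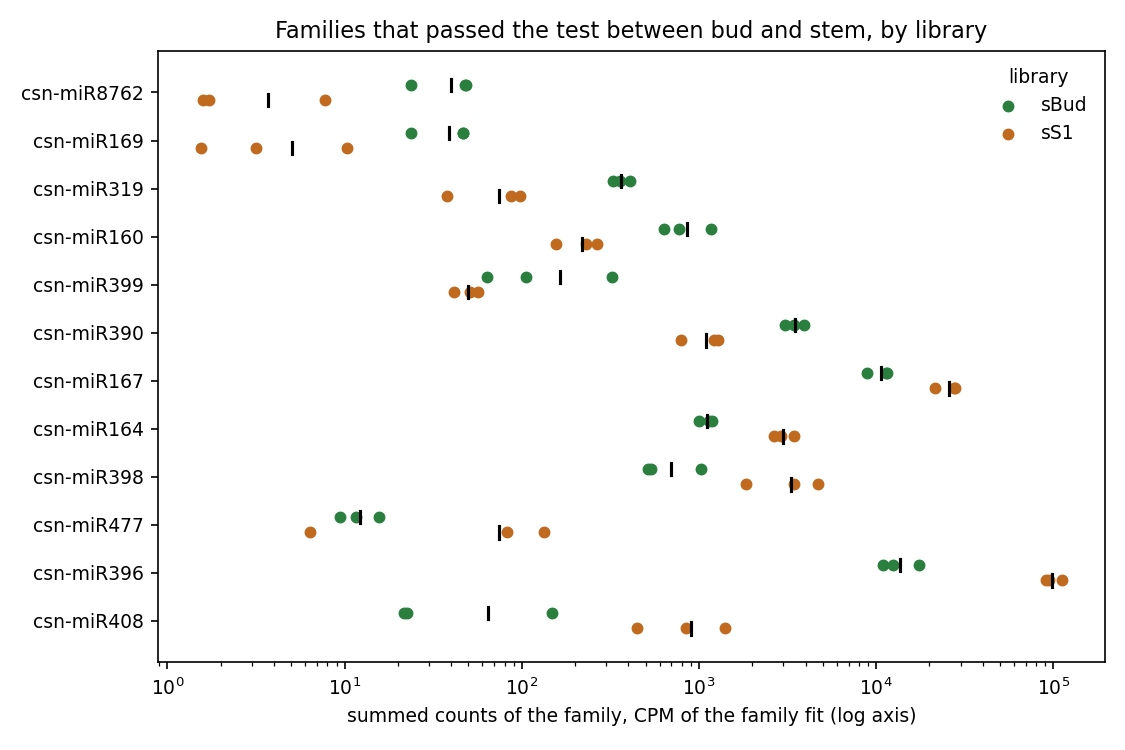
Points show the summed level of a family in each sBud (green) and sS1 (orange) library, in CPM of the fit per family on a log axis, and black bars show the mean of 3 libraries. The 12 families with a name that passed the test are ordered by their log2 fold change. The libraries of both organs overlap in csn-miR477 alone, and csn-miR399 and csn-miR408 each have 1 sBud library above the other sBud libraries.

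Among the families whose targets act in organ growth and cell proliferation (csn-miR159, csn-miR319 and csn-miR396), 54 IDs were tested, of which 11 were higher in sBud, 8 were higher in sS1 and 35 did not pass. The 19 DEMs are 35.2% of these IDs, against 22.5% of all tested IDs, and here as for the groups that follow the difference was not tested. The median log2 fold change was 0.60, against 0.06 over all tested IDs. The directions were split by family. All 8 DEMs that were higher in the stem belonged to csn-miR396, and csn-miR159 and csn-miR319 had DEMs higher in the bud only.

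csn-miR396, the family known for repressing GRFs, was higher in the stem as a whole. In the fit per family it had 10943, 17582 and 12441 CPM in sBud and 111819, 91292 and 94204 CPM in sS1, so that every stem library was above every bud library (log2FC -2.86, SE 0.45, adjusted p = 0.000899). Its leading member cas-MIR396-11 held 90.3% of the family's counts in sBud and 90.1% in sS1. It had 10872, 16811 and 11259 CPM in sBud and 90901, 92026 and 111885 CPM in sS1. This is 7.57 times as much in the stem (log2FC -2.92, SE 0.30, adjusted p = 1.13e-05). The rest of the family, summed without that member, was also higher in the stem (log2FC -2.99, SE 0.32, adjusted p = 4.62e-06), which was examined after the data were seen. cas-MIR396-3 went from 577, 535 and 541 CPM in sBud to 8403, 8343 and 9611 CPM in sS1, a log2 fold change of -3.99 (SE 0.45, adjusted p = 1.41e-05). The difference of both members was many times the spread within an organ, but both are DEMs named under a rule that asked for libraries without overlap.

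Of the 15 tested members of csn-miR396, 8 were DEMs higher in sS1, 1 was higher in sBud and 6 did not pass. Over all tested IDs, 10.8% were higher in sS1 and 11.7% were higher in sBud. cas-MIR396-14 had 0, 0 and 0 counts in sBud and 24, 11 and 22 counts in sS1. Its level was at least 5.63-fold higher in the stem when a count of 0 is taken as 3 counts per library (adjusted p = 0.000452). cas-MIR396-21 had 38.7, 87.2 and 5.16 CPM in sBud and 375, 339 and 269.8 CPM in sS1. cas-MIR396-17 had 7.37, 27.4 and 5.16 CPM in sBud and 67.2, 67.8 and 97.6 CPM in sS1. In both, sBud replicate 2 was the highest of the bud libraries and still below the stem, as the rule that named them asked. Their log2 fold changes were -2.95 (adjusted p = 0.00323) and -2.60 (adjusted p = 0.00392), and -3.89 and -3.57 without sBud replicate 2. In all, 14 had a negative log2 fold change, also with RLE size factors or library size only. The exception was cas-MIR396-8, at 84.8, 107 and 55.0 CPM in sBud and 9.38, 6.95 and 14.5 CPM in sS1, which was higher in the bud (log2FC 2.98, SE 0.48, adjusted p = 0.000414). The call of cas-MIR396-16 was the least firm (adjusted p = 0.0497) and was lost in 11 of 16 alternatives, and that of cas-MIR396-18 was lost in 6 of 16.

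csn-miR159, which targets GAMYB-like factors, was the largest family in the bud, and 27 of its 31 tested members had a positive log2 fold change (28 with library size only). The median log2 fold change was 0.96 in the family and 0.06 over all tested IDs. Its 8 DEMs were all higher in sBud, and of all tested IDs 11.7% were DEMs in that direction. The largest by level was cas-MIR159-2, which the study chose for qRT-PCR and reports as upregulated in sBud/sS1. It had 28775, 39530 and 23201 CPM in sBud and 4986, 5157 and 2991 CPM in sS1, 6.97 times as much in the bud (log2FC 2.80, SE 0.25, adjusted p = 5.29e-06). The organs were well apart, although sS1 replicate 3 was lower than the other stem libraries. As a whole, the family was short of the threshold (log2FC 0.77, SE 0.26, adjusted p = 0.0384), and cas-MIR159-1 made up 90.3% of its counts in sBud and 94.8% in sS1. Summed without that ID it was higher in sBud, at 44362 ± 5651 CPM against 14608 ± 3333 CPM in sS1 (log2FC 1.60, SE 0.19, adjusted p = 1.15e-05). This sum was examined after the data were seen. Most of it in the bud was cas-MIR159-2, at a mean of 30502 CPM in sBud and 4378 CPM in sS1 in the fit per ID. The family without both IDs was not tested.

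Some minor csn-miR159 members were close to absent from the stem. cas-MIR159-28 had 15, 12 and 40 counts in sBud and 0, 1 and 0 counts in sS1, a ratio of scaled counts of 74.5 with a 95% counting interval from 12.9 to 2986 (adjusted p = 0.000536). Its log2 fold change of 5.70 was 7.56 without sS1 replicate 2. cas-MIR159-37 had 26, 9 and 5 counts in sBud and 0, 1 and 1 in sS1, a ratio of 22.2 (interval 5.77 to 190.0, adjusted p = 0.00592). With sBud replicate 1 left out, its log2 fold change went from 4.22 to 3.40. cas-MIR159-13 had 71.9, 52.3 and 65.3 CPM in sBud and 9.38, 8.69 and 0 CPM in sS1 (log2FC 3.29, SE 0.64, adjusted p = 0.00160). The other DEMs, cas-MIR159-14, cas-MIR159-6, cas-MIR159-15 and cas-MIR159-3, had log2 fold changes from 1.25 to 1.97. The call of cas-MIR159-3 was lost with no filter (adjusted p = 0.126), without sBud replicate 2 (0.0555) and without sS1 replicate 2 (0.0802). That of cas-MIR159-15 was lost without sBud replicate 2 (adjusted p = 0.0741) and without sS1 replicate 3 (0.0573). Another member chosen for qRT-PCR, cas-MIR159-45, had 59.0, 114.6 and 91.1 CPM in sBud and 68.8, 15.6 and 66.4 CPM in sS1, and its libraries overlapped (adjusted p = 0.320).

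csn-miR319, known for restraining TCP factors, had 8 tested members, of which 2 were higher in sBud (against 11.7% of all tested IDs) and 6 did not pass. Its leading member cas-MIR319-1 had 282, 291 and 339 CPM in sBud and 48.5, 67.8 and 39.4 CPM in sS1 (log2FC 2.54, SE 0.35, adjusted p = 0.000120). cas-MIR319-6 had 20, 26 and 12 counts in sBud against 3, 2 and 1 in sS1, a ratio of 10.8 (counting interval 4.65 to 30.5, adjusted p = 0.000452). Both sets of libraries were apart in both miRNAs, which for cas-MIR319-6 was part of the rule that named it. The members chosen for qRT-PCR were scarce in bud and stem: cas-MIR319-2 had 0 counts in sBud and 2, 0 and 0 in sS1, and cas-MIR319-9 had from 0 to 3 counts in each of the 6 libraries, so no difference was detectable at this depth.

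**Figure D3:**
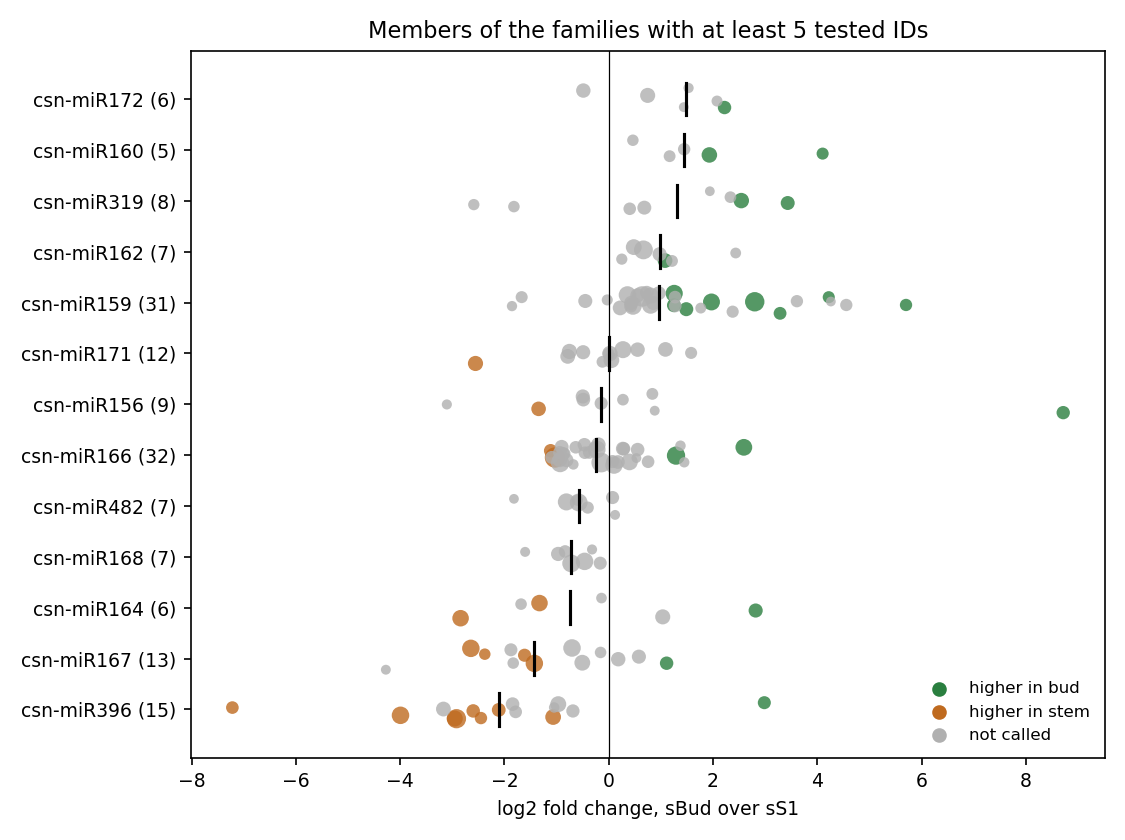
Each point is a tested member of a family with at least 5 tested IDs, placed by its log2 fold change of sBud over sS1, and larger points had more counts over the 12 libraries. Black bars mark the median of the family, and numbers in brackets give its tested IDs. Of the members of csn-miR396, 14 of 15 lie left of 0, with a median of -2.11, and 5 of 5 of csn-miR160 and 6 of 8 of csn-miR319 lie right of 0. DEMs on both sides are seen in csn-miR396, csn-miR164, csn-miR167, csn-miR166 and csn-miR156.

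Among families that act on leaf polarity and the meristem, 37 IDs were tested, 3 were higher in sBud, 2 were higher in sS1 and 32 did not pass. DEMs were 13.5% of them, against 22.5% of all tested IDs, and the median log2 fold change was -0.20. csn-miR166, which targets class III HD-ZIP factors, supplied 32 of the tested IDs and did not pass as a family (log2FC -0.64, SE 0.29, adjusted p = 0.108). Its members went in opposite directions. cas-MIR166-22 had 22770, 20495 and 24519 CPM in sBud and 10359, 9820 and 7531 CPM in sS1 (log2FC 1.29, adjusted p = 0.000778). It bears the number of a qRT-PCR choice of the study, which describes that miRNA as specific to the stem. cas-MIR166-32 had 2915, 2259 and 3542 CPM in sBud and 456, 580 and 409 CPM in sS1 (log2FC 2.59, SE 0.28, adjusted p = 1.41e-05). Both were higher in every bud library, while cas-MIR166-4 was higher in every stem library. The calls on the stem side were less firm. That of cas-MIR166-4 was lost in 6 of 15 alternatives and that of cas-MIR166-37 (adjusted p = 0.0392) in 12 of 16, without a change of sign. The second most abundant member, cas-MIR166-41, was similar in level, at 109165 ± 6934 CPM in sBud and 120545 ± 8794 CPM in sS1 (adjusted p = 0.502). Reads of such closely related IDs may have been shared between them in counting, because the rule for reads with several matches is not stated, so values of single members are uncertain.

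csn-miR390, which triggers the TAS3 small RNAs against auxin response factors, was higher in the bud. cas-MIR390-1 held 84.1% of the counts of its family in sBud and 72.5% in sS1. It had 3192, 2652 and 3357 CPM in sBud and 863, 959 and 756 CPM in sS1. Every bud library was above the stem (log2FC 1.84, SE 0.21, adjusted p = 1.89e-05). The other members of the family, summed, had 557 ± 39.1 CPM in sBud and 320 ± 67.9 CPM in sS1 and did not reach the threshold (log2FC 0.80, adjusted p = 0.0276). The related csn-miR391 was counted 2 or 3 times in each of the 6 libraries.

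In the families of auxin response, 21 IDs were tested, 3 were higher in sBud and 4 were higher in sS1, with 14 that did not pass. DEMs were 33.3% of them, against 22.5% of all tested IDs, and the median log2 fold change was -0.16. The families went in opposite directions. csn-miR160, known for the repressor type of auxin response factors, was higher in the bud, and csn-miR167, known for the activator type, was higher in the stem. cas-MIR160-2 had 772, 595 and 1093 CPM in sBud and 192, 274.5 and 178.5 CPM in sS1 (log2FC 1.93, SE 0.32, adjusted p = 0.000452). cas-MIR160-4 had 24, 4 and 27 counts in sBud and 0, 3 and 0 in sS1, a ratio of 20.4 (counting interval 6.62 to 102, adjusted p = 0.00806), with a log2 fold change of 4.10 that was 7.26 without sS1 replicate 2. All 5 tested members of csn-miR160 had a positive log2 fold change under every scaling tried. The leading member of csn-miR393, which acts on auxin receptors, was cas-MIR393-5, at 51.1 ± 9.42 CPM in sBud and 27.4 ± 11.2 CPM in sS1 (adjusted p = 0.136).

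Within csn-miR167, the members that were higher in the stem included abundant ones. cas-MIR167_2-1 had 1212, 1938 and 1607 CPM in sBud and 10209, 8301 and 11226 CPM in sS1 (log2FC -2.64, SE 0.30, adjusted p = 1.41e-05). cas-MIR167_2-3 had 2902, 3519 and 3463 CPM in sBud and 7636, 7202 and 11736 CPM in sS1 (log2FC -1.43, SE 0.25, adjusted p = 0.000779). In both, the stem libraries were above the bud libraries, which for cas-MIR167_2-1 was part of the rule that named it. The stem DEMs cas-MIR167_2-9 and cas-MIR167_1-1 were scarce, and their calls were lost in 12 of 15 and in 3 of 16 alternatives. The most abundant member, cas-MIR167_2-2, had 5243 ± 405 CPM in sBud and 8543 ± 3189 CPM in sS1 and did not pass (log2FC -0.70, adjusted p = 0.108), with sS1 replicate 3 above the other stem libraries at 12174 CPM. The family changed by -1.28 on the log2 scale (adjusted p = 0.00813), and by -1.80 without that member. The qRT-PCR choice is named without its subfamily, so that cas-MIR167_2-2 and cas-MIR167_1-2 both bear its member number. By the study's qRT-PCR that miRNA was highest in the bud. cas-MIR167_1-2 was at 79.7 ± 16.5 CPM in sBud and 37.0 ± 11.4 CPM in sS1. Its call as higher in the bud (log2FC 1.11, adjusted p = 0.0414) was lost in 8 of 16 alternatives, among them the omission of each sBud library and of sS1 replicates 1 and 2, where the adjusted p was between 0.0541 and 0.129.

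In the families of organ boundaries and meristem maintenance, 20 IDs were tested, 2 were higher in sBud, 3 were higher in sS1 and 15 did not pass. DEMs were 25.0% of them, against 22.5% of all tested IDs, and the median log2 fold change was -0.06. csn-miR164, which limits CUC factors, was higher in the stem, at 995, 1186 and 1139 CPM in sBud and 2651, 3423 and 2905 CPM in sS1 in the fit per family (log2FC -1.44, SE 0.32, adjusted p = 0.00368). cas-MIR164_2-1 had 238, 219 and 165.0 CPM in sBud and 1057, 1722 and 1679 CPM in sS1 (log2FC -2.84, SE 0.27, adjusted p = 5.29e-06). cas-MIR164-2 had 656, 797 and 682 CPM in sBud and 1283, 2054 and 2024 CPM in sS1 (log2FC -1.33, adjusted p = 0.00146). The 3 stem libraries were above the bud in both, which for cas-MIR164_2-1 was part of the rule that named it. cas-MIR164_2-4 went the other way, with 138, 152 and 208 CPM in sBud and 14.1, 13.9 and 43.6 CPM in sS1 (log2FC 2.82, adjusted p = 0.00354), and its log2 fold change was 3.54 without sS1 replicate 3.

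csn-miR171, known for GRAS factors of the HAM group, did not pass as a family (log2FC 0.07, adjusted p = 0.854). A single member out of 12 was a DEM, against 22.5% of all tested IDs. cas-MIR171_2-6 had 138, 89.7 and 101 CPM in sBud and 727, 480 and 737 CPM in sS1 (log2FC -2.56, SE 0.45, adjusted p = 0.000779), whereas the leading cas-MIR171_2-8 had 3275 ± 285 CPM in sBud and 2711 ± 145 CPM in sS1 (adjusted p = 0.346). In csn-miR394, which targets an F-box protein of the shoot meristem, the minor member cas-MIR394-2 was higher in the bud (log2FC 1.75, SE 0.42, adjusted p = 0.00672), at 142, 99.6 and 168.4 CPM in sBud and 42.2, 53.9 and 24.9 CPM in sS1. The leading member cas-MIR394-1 had 1688 ± 170 CPM in sBud and 2447 ± 245 CPM in sS1 and did not pass (adjusted p = 0.0685).

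In the families of phase change and flowering time, 19 IDs were tested, 2 were higher in sBud, 2 were higher in sS1 and 15 did not pass. DEMs were 21.1% of them, against 22.5% of all tested IDs, and the median log2 fold change was 0.03. csn-miR156, which restrains SPL factors in the juvenile phase, had a DEM in each direction. cas-MIR156-14 had 48, 50 and 45 counts in sBud and 0, 0 and 0 in sS1. Its level was at least 18.0-fold higher in the bud (adjusted p = 0.000196). cas-MIR156-26, the member with the most counts over the series, had 51.6, 114.6 and 41.2 CPM in sBud and 167.3, 208 and 145.3 CPM in sS1 (log2FC -1.34, adjusted p = 0.0160), a call that was lost without sBud replicate 1 (adjusted p = 0.0623) or replicate 3 (0.0735). The family had 328 ± 135 CPM in sBud and 365 ± 65.9 CPM in sS1 and did not pass (adjusted p = 0.818). cas-MIR535-1, of a family that also targets SPL factors, was higher in the stem, at 345, 760 and 363 CPM in sBud and 1349, 1324 and 1268 CPM in sS1 (log2FC -1.43, adjusted p = 0.00834). The leading members of csn-miR535 and of csn-miR172, which targets AP2 factors, did not pass (adjusted p = 0.387 for cas-MIR535-7 and 0.173 for cas-MIR172-2). The minor cas-MIR172-12 was higher in the bud (log2FC 2.22, adjusted p = 0.0160, and 2.88 without sS1 replicate 3), which did not hold without sBud replicate 1 (adjusted p = 0.0766) or sS1 replicate 2 (0.0527).

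**Figure D4:**
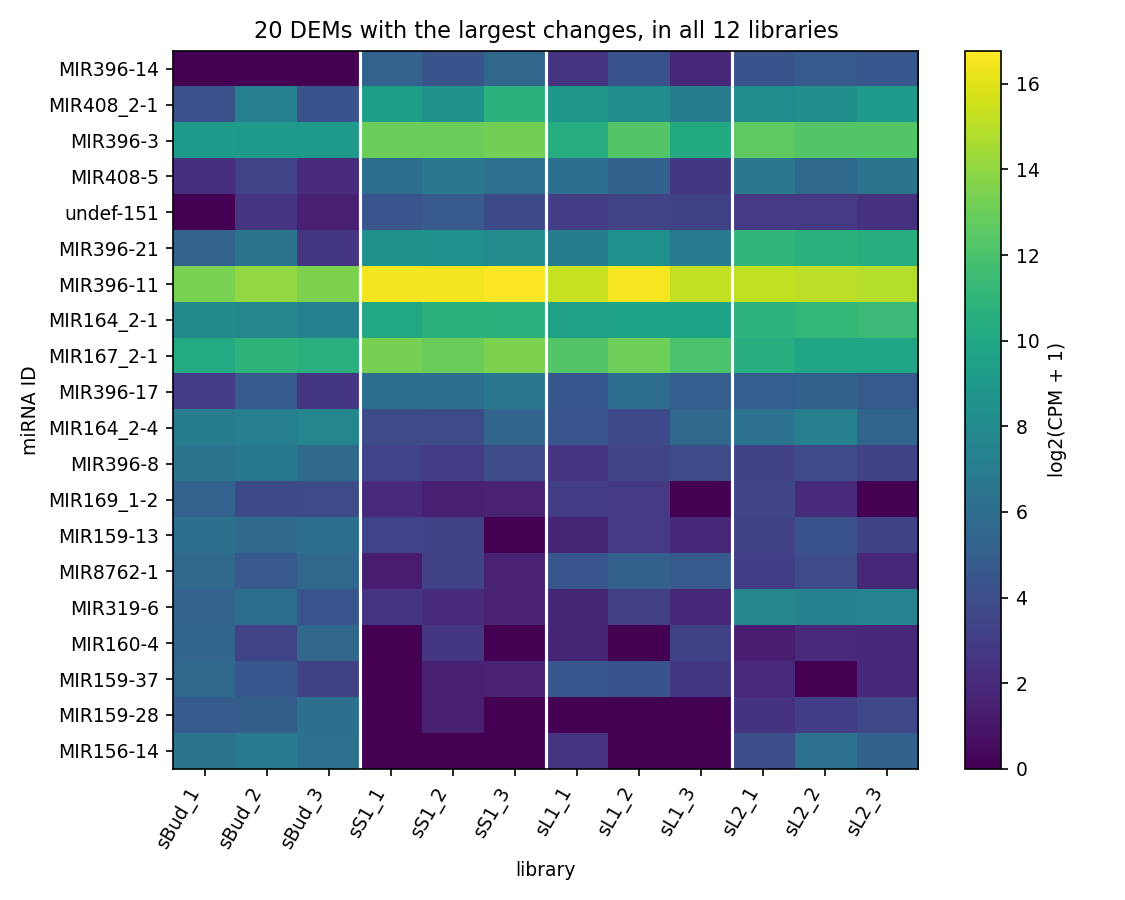
Rows are the 20 DEMs with the largest changes, 10 in each direction, among those whose higher organ had a mean of 10 counts or more and whose libraries did not overlap. Columns are the 12 libraries in the order sBud, sS1, sL1 and sL2, and colour gives log2(CPM + 1). The upper rows are darker in sBud than in sS1 and the lower rows the reverse. The leaf libraries are shown for reference. They entered the rule on low counts and the estimate of the spread, but not the contrast.

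csn-miR408 and csn-miR398, which act on copper proteins and laccases, were higher in the stem. Of their 6 tested IDs, 3 were higher in sS1 (50.0%, against 10.8% of all tested IDs) and 3 did not pass, and the median log2 fold change was -3.94. csn-miR408, which targets plantacyanin and laccases, had 21.5, 148.5 and 22.5 CPM in sBud and 849, 449.8 and 1406 CPM in sS1 in the fit per family (log2FC -3.85, SE 0.75, adjusted p = 0.00217). Of its members, cas-MIR408_2-1 had 16.6, 146.9 and 18.9 CPM in sBud and 675, 398 and 1760 CPM in sS1 (log2FC -4.00, SE 0.82, adjusted p = 0.00221), and cas-MIR408-5 had 2, 4 and 2 counts in sBud and 42, 61 and 36 in sS1, a ratio of 15.6 in favour of the stem (counting interval 7.71 to 36.9, adjusted p = 0.00108). The level of cas-MIR408_2-1 varied widely within each organ. Its log2 fold change was -5.70 without sBud replicate 2 and -3.22 without sS1 replicate 3, and that of the family was -5.50 without sBud replicate 2. cas-MIR398_2-1, of the family that targets copper/zinc superoxide dismutases, had 568, 558 and 1005 CPM in sBud and 4253, 1960 and 4490 CPM in sS1 (log2FC -2.33, SE 0.62, adjusted p = 0.0125, and 0.0504 without sBud replicate 1).

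Among nutrient families, 1 of 9 tested IDs was higher in sBud (11.1%, against 11.7% of all tested IDs) and 8 did not pass (median log2 fold change 0.31). cas-MIR399-1, of the family known for the phosphate response, had 64.5, 44.8 and 304 CPM in sBud and 20.3, 36.5 and 33.2 CPM in sS1. The difference rested on sBud replicate 3, since the log2 fold change of 2.21 (adjusted p = 0.0286) was 0.87 without it (adjusted p = 0.345). It was also not called without sS1 replicate 1, 2 or 3 (adjusted p = 0.0926, 0.0540 and 0.0729). The leading members of csn-miR395, which acts in sulfate assimilation, and of csn-miR2111 overlapped between the organs (adjusted p = 0.271 for cas-MIR395-5 and 0.234 for cas-MIR2111-1).

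In the families of the silencing machinery, 1 of 16 tested IDs was a DEM (6.25%, against 22.5% of all tested IDs, a difference that was not tested), higher in sBud, and 15 did not pass (median log2 fold change 0.20), and that call, of cas-MIR162_1-3, was lost without any of 5 of the 6 libraries (adjusted p from 0.0505 to 0.108). cas-MIR162_2-2, of the family that targets DICER-LIKE1, had 48177, 44135 and 39901 CPM in sBud and 30276, 25672 and 27410 CPM in sS1. The libraries did not overlap, yet the log2 fold change of 0.67 (SE 0.19, adjusted p = 0.0179) was below the threshold. It bears the number of a qRT-PCR choice that the study describes as specific to the stem. cas-MIR168-6, of the family that targets ARGONAUTE1, leaned to the stem, at 4173 ± 780 CPM in sBud and 6875 ± 788 CPM in sS1 (log2FC -0.72, adjusted p = 0.00806). By the study's qRT-PCR the miRNA of that number was highest in the bud. All 7 tested members of csn-miR162 had a positive and all 7 of csn-miR168 a negative log2 fold change, and with library size only 1 of the latter turned positive. Single members of a family may share reads and are not independent. cas-MIR403-4, of the family that targets ARGONAUTE2, had 1116 ± 164 CPM in sBud and 726 ± 120 CPM in sS1 (adjusted p = 0.0728). cas-MIR162_1-2, the other ID with the family and member number of a qRT-PCR choice, had 2, 4 and 5 counts in sBud and 1, 1 and 0 in sS1 (adjusted p = 0.0564).

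Against 22.5% of all tested IDs, edgeR called 0 of the 3 tested IDs of csn-miR858, which acts on MYB factors. For csn-miR482, which acts on immune receptors, it called 0 of 7. DESeq2 and limma-voom also gave 0, and the unadjusted p was below 0.05 for 1 ID of csn-miR858 and 2 IDs of csn-miR482 with each tool. cas-MIR858-4 had 6886, 6107 and 6971 CPM in sBud and 2559, 4816 and 3479 CPM in sS1 (log2FC 0.88, SE 0.34, adjusted p = 0.0669). Its bud libraries lay above those of the stem, and it passed without sS1 replicate 2 (log2FC 1.14, adjusted p = 0.0372) and with library size only (log2FC 1.04, adjusted p = 0.0343). cas-MIR482-14 had 5930 ± 568 CPM in sBud and 8838 ± 574 CPM in sS1 (log2FC -0.58, adjusted p = 0.0159).

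**Figure D5:**
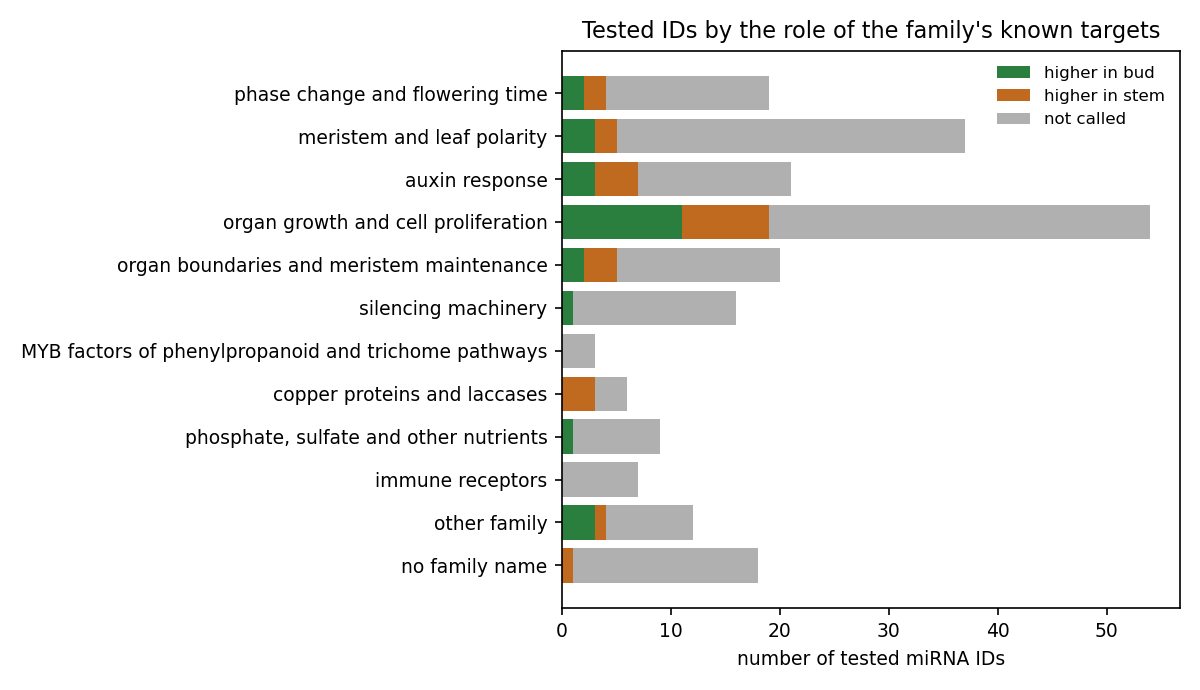
Bars count the tested IDs of each group of families, formed by the targets the families are known for, with the number of IDs on the horizontal axis. Green marks DEMs higher in sBud, orange DEMs higher in sS1 and grey the IDs that did not pass. DEMs are 19 of 54 IDs (35.2%) in the group of organ growth and cell proliferation and 3 of 6 (50.0%), all of the stem, in that of copper proteins and laccases, against 22.5% of all tested IDs.

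Of the 12 tested IDs in other families, 3 were higher in sBud, 1 was higher in sS1 and 8 did not pass. DEMs were 33.3% of them, against 22.5% of all tested IDs. csn-miR169, which targets NF-YA subunits, had 28, 10 and 27 counts in sBud and 6, 1 and 2 in sS1 as a family, a ratio of 8.34 (counting interval 4.13 to 19.1, adjusted p = 0.00368). Its log2 fold change of 2.95 was 3.94 without sS1 replicate 1. The calls of its members cas-MIR169_1-2 and cas-MIR169_6-2, each with 20 counts or fewer in a library, were lost without some of the libraries, that is without sBud replicate 1 or any of the sS1 replicates for the first (adjusted p from 0.0614 to 0.151), and without sBud replicate 3 or sS1 replicate 2 for the second (adjusted p = 0.0650 and 0.0504). The log2 fold change of cas-MIR169_6-2 was 4.25, 3.64 without sBud replicate 3 and 6.15 without sS1 replicate 3. cas-MIR8762-1 had 29, 10 and 28 counts in sBud and 1, 5 and 1 in sS1, a ratio of 10.6 (counting interval 4.89 to 27.5, adjusted p = 0.00221), and its log2 fold change of 3.29 was 4.41 without sS1 replicate 2. cas-MIR477-2 had 9.21, 7.47 and 15.5 CPM in sBud and 71.9, 144.2 and 8.30 CPM in sS1. It was the DEM whose libraries overlapped, and without sS1 replicate 2 its log2 fold change of -2.76 was -1.88 and did not pass (adjusted p = 0.0652). Of the 18 tested IDs without a family name, cas-undef-151 was higher in the stem, at 0, 2 and 1 counts in sBud and 13, 16 and 6 in sS1, a ratio of 10.5 (counting interval 3.31 to 53.3, adjusted p = 0.00566), with a log2 fold change of -3.19 that was -4.21 without sBud replicate 2. The abundant cas-undef-156 had 17979 ± 1007 CPM in sBud and 25555 ± 2610 CPM in sS1 (log2FC -0.51, adjusted p = 0.0173).

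The share of DEMs differed with the number of counts, and the part of depth in this was not tested. Of 83 tested IDs with 10 to 99 counts over the 12 libraries, 8 were DEMs (9.64%), with a median SE of 1.15 on the log2 scale. Of 77 IDs with 100 to 999 counts, 20 were DEMs (26.0%, median SE 0.48), and of 62 IDs with 1000 or more, 22 were DEMs (35.5%, median SE 0.27). Another 49 IDs had an absolute log2 fold change above 1 without a passing p. In the 6 libraries compared, 151 of the tested IDs were counted in every library, 11 had 0 counts throughout sBud and 7 had 0 counts throughout sS1, including 1 with 0 counts in both.

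In the leaf libraries the leading DEMs had levels of their own. cas-MIR159-2 was at 3515 CPM on average in sL1 and at 179078 CPM in sL2, against 30502 CPM in sBud and 4378 CPM in sS1. cas-MIR319-1 had 31.5 CPM in sL1 and 859 CPM in sL2, so that its mean was highest in the second leaf and not in the bud. cas-MIR396-11 had 58447 CPM in sL1 and 34615 CPM in sL2, between its means of 12981 CPM in sBud and 98271 CPM in sS1. cas-MIR390-1 had 1566 CPM in sL1 and 1683 CPM in sL2, also between its means in the bud and the stem. These means are from the same scaling and were not tested against each other here.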

How the data were processed

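The authors isolated RNA fragments of the size of small RNAs, trimmed and quality-filtered the reads, left out those of other non-coding RNAs, matched the rest against miRBase plant entries, allowing few mismatches, and deposited the counts per miRNA ID, as whole numbers without normalization, 1 file per library. How reads with several matches were counted is not given in the sources used here, and the library kit named in the labels is one for mRNA. No miRNA sequences were used here. Groups and replicate numbers come from the sample titles. The study calls the replicates biological, but the plants behind each are not named. The p-values of edgeR's test set the difference between sBud and sS1 against the spread between libraries of a group, estimated over the 12 libraries.

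Counts were tested in R 4.3.3 with edgeR 4.0.16 (estimateDisp, glmQLFit and glmQLFTest, TMM, Benjamini-Hochberg over all tested IDs). The 12 libraries were fitted together with a term per group, and the contrast was sBud against sS1. Families were tested on summed counts after joining subfamilies. The criterion differs from that of the study's methods (DESeq, unadjusted p) in using the adjusted p. Ratios for scarce IDs have exact binomial 95% counting intervals, and a count of 0 was taken as 3 counts per library for lower bounds. Named are the 10 DEMs with the largest change in each direction (mean of 10 counts or more in the higher organ, no overlap), the most abundant ID of each listed family, the 10 most abundant IDs and the study's qRT-PCR choices. Other named DEMs, and the sums of a family without its leading member, were chosen after their values were seen. The members and family lists were chosen with earlier results of these data known. Alternatives included DESeq2 1.42.0 and limma 3.58.1. The procedure was tested on simulated data.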

Additional observations from a re-analysis of the deposited data

How the results depend on the processing

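The number of DEMs between sBud and sS1 was 50. It was 47 with DESeq2, where 36 IDs had no adjusted p, 52 with limma-voom, 51 with RLE size factors, 53 with library size only, 44 without the 5 most abundant IDs, 50 with no filter, 49 with filterByExpr, 49 in a fit of the 6 libraries, 65 with the unadjusted p, and from 41 to 50 without 1 library. Between 39 and 47 of the DEMs at each setting were shared with the 50 DEMs, leaving aside the unadjusted p. That setting uses the same fit and cannot lose a call, so all 50 were kept there by construction. It is counted among the settings below and among the alternatives given above for single IDs. Of the 50 DEMs, 33 kept their call under each setting that tested them (29 under 16 settings and 4 under 15), 17 lost it under at least 1, and none reversed. A mean of 10 counts or more in the higher organ, a limit chosen after seeing the data, left 48. No pairing by replicate number was seen, as the deviations of same-numbered sBud and sS1 libraries had correlations of -0.0523, 0.0737 and 0.00923. Those of differently numbered libraries ran from -0.153 to 0.163. Such values cannot show whether same-numbered libraries came from the same plants, which is not known. With the replicate number as a block, 46 DEMs were found, all among the 50, and the calls of cas-MIR166-37, cas-MIR167_2-9, cas-MIR167_1-2 and cas-MIR396-16 were lost. The log2 fold change of cas-MIR166-41, which did not pass, was 0.039 with library size only. That of cas-MIR319-9, which did not pass, ranged from -0.079 without sS1 replicate 3 to 1.01 without sS1 replicate 1. The share of the 5 most abundant IDs, -1.96 percentage points (sBud minus sS1), was 3.32 for 2 IDs and 0.763 for 10 IDs, with the difference in construction being the IDs included. The median standard error was 1.15 on the log2 scale for IDs with 10 to 99 counts and 0.27 for those with 1000 or more, so the scarce IDs are measured with less precision.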
